A study of Rattus norvegicus with 6 samples.

Results

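The nuclear genes for subunits of respiratory complexes II to V and for cytochrome c were examined in hearts of rats given ISO or saline. The set was a list of 34 gene symbols: 4 of complex II, 9 of complex III, cytochrome c itself, 9 of complex IV and 11 of complex V. A row of the deposited count table belonged to the set if its gene name equalled a listed symbol, and where a name was repeated the row with the largest total was used. Rows were found for 33 of the 34, among 32883 rows with a gene name. The expression of Atp5f1c, the gamma subunit of ATP synthase, was not analysed here, but its promoter is among those searched for motifs below.

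All animals were male wild-type Sprague–Dawley rats, which are outbred, 8 weeks old and 250 to 300 g in weight. The 3 ISO rats received 1.5 mg/kg of ISO per day under the skin for 7 days, and the 3 saline rats received the same volume of saline. ISO is the labels' abbreviation and stands here for isoproterenol, which activates beta-adrenergic receptors and is given to rodents to model cardiac hypertrophy and fibrosis. RNA came from heart tissue with all of its cell types, and the labels do not name the chamber. In such bulk samples, fewer cells of a type and less RNA per cell cannot be told apart.

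Complexes II to V are the later stages of oxidative phosphorylation in the inner mitochondrial membrane. Succinate dehydrogenase, complex II, passes electrons from the tricarboxylic acid cycle to ubiquinone, complex III passes them on to cytochrome c, and complex IV hands them to oxygen. Complexes III and IV pump protons, and complex V, the ATP synthase, uses the return of those protons to make ATP. Complex II is built from nuclear-encoded subunits alone, whereas complexes III, IV and V each combine nuclear-encoded subunits with a few made inside the mitochondrion. Cardiomyocytes, which contract without rest, are densely packed with mitochondria, and the heart uses tissue-specific isoforms of some complex IV subunits.

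The 6 libraries held 14880391 to 17299589 counts, and 3 counts were worth 0.176 to 0.204 CPM (counts relative to the library's named total, scaled by the trimmed mean of M values). Mitochondrially encoded genes took 21.1% to 29.2% of the named counts in saline and 23.0% to 23.3% in ISO. Summed cardiomyocyte markers came to 86063 to 101916 CPM in saline and 58487 to 85419.6 CPM in ISO, with every ISO library below every saline library. Of these 17 markers, 13 had a log2 fold change below 0 and 4 above. edgeR, the test described below, called 1 lower and 0 higher, where it called 1.50% of all tested genes lower. That was Actc1, with means of 15452 CPM in saline and 6810 CPM in ISO. DESeq2 called 5 lower and 1 higher, against 4.74% and 5.46% of all tested genes. Without any 1 saline library or without ISO replicate 1, edgeR called 0. ISO replicate 1 also held transcripts of atrial muscle, with 1128 counts of Myl7 and 192 of Bmp10 against 0 to 25 and 0 to 2 in the other 5 libraries. The groups further differed in markers of other cells. The log2 fold change was above 0 in 12 of 12 fibroblast markers and 14 of 14 macrophage markers. edgeR called 3 and 5 of them higher, where it called 1.47% of all tested genes higher. Leaving out any 1 saline library gave 0 calls in both lists, and leaving out ISO replicate 1 gave 0 and 1. It called 9 and 11 without ISO replicate 2, and 4 and 6 without ISO replicate 3. With the replicate number as a block it called 0 and 1. Summed fibroblast markers came to 5505 to 6129 CPM in saline and 10764 to 23456 CPM in ISO, and summed macrophage markers to 422 to 529 CPM and 897 to 2015 CPM, and none of these markers was at 0 in all libraries. The 8 tested red blood cell markers all had a log2 fold change below 0, with a median of -0.90. edgeR called 1 of them lower and voom 0, and their sums overlapped between the groups. The part of these cell types, cardiomyocytes included, in the results on the respiratory genes was not tested.

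No respiratory gene of the set passed the test between ISO and saline, but most values lay on the lower side. A gene was called when its adjusted p from edgeR's quasi-likelihood test, with Benjamini-Hochberg adjustment over all 13766 tested genes, was under 0.05. Of 32 members tested, 0 were called, whereas 2.97% of all tested genes were. The lowest adjusted p of a member was 0.068 (Sdhc) and the highest 0.9803 (Cox6a2). The voom method of limma also called 0 members, with 2.39% of all genes called, 1.12% higher and 1.27% lower. DESeq2 called 3, all lower in ISO, namely Sdhc, Uqcrc2 and Cycs, where it called 10.2% of all genes, 4.74% as lower and 5.46% as higher. The rule of the series description, an unadjusted p under 0.05 and a log2 fold change beyond 0.5 in size, took 2 members, where it took 13.2% of all genes. They were Cycs on the lower side (4.50% of all genes) and Uqcr10 on the higher side (8.67%). Before adjustment, 6 members had a p under 0.05 in edgeR, a share of the set below the 22.9% of all tested genes. 5 of these 6 were lower in ISO (Sdhc, Cycs, Uqcrc2, Atp5mc3 and Cox5a) and 1 was higher (Uqcr10), against 10.9% and 12.0% of all genes.

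The fold changes of the set leaned to the negative side. The log2 fold change of ISO over saline was below 0 in 27 members and above 0 in 5, against 47.7% and 52.3% of all tested genes. Without scaling between libraries, which moved the median of all genes from 0.02 to 0.13, 21 members were below 0 and 11 above. The median over the members was -0.16, beside 0.02 over all tested genes. By complex, the median log2 fold change was -0.24 for the 4 members of complex II, -0.15 for the 9 of complex III, -0.08 for the 8 tested of complex IV and -0.18 for the 10 of complex V, and -0.53 for cytochrome c. In 8 members every ISO library lay below every saline library (Sdhc, Uqcrc2, Uqcrfs1, Cycs, Cox5a, Cox7b, Atp5po and Atp5mc3), and in 0 members above. Among all tested genes, 14.6% had ISO wholly below saline and 14.1% wholly above.

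The 95% interval of the fold change excluded a 2-fold change for 29 of the 32 members, all but Uqcr10, Uqcr11 and Atp5pb, and excluded a 1.5-fold change for 16. The interval excluded 0 for the 6 members with an unadjusted p under 0.05. These intervals are not adjusted for the number of genes.

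**Figure D1:**
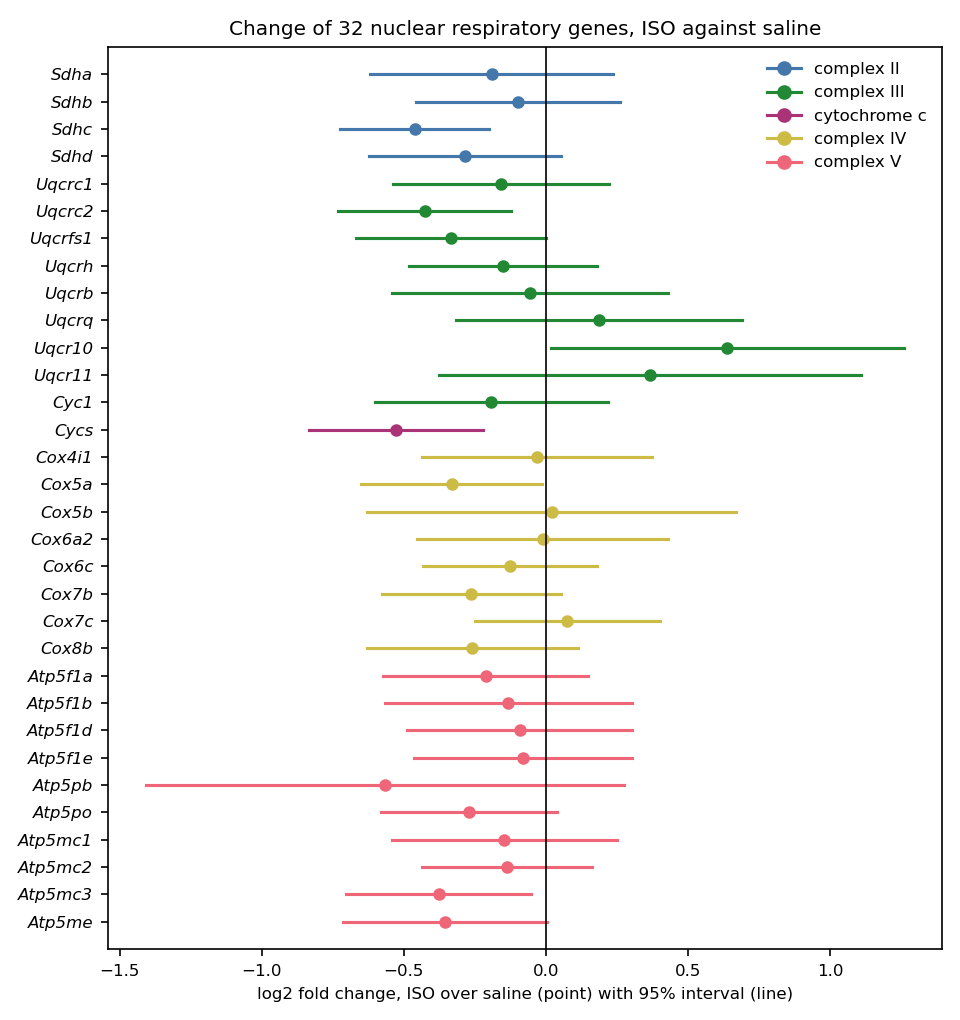
Log2 fold change of ISO over saline for the 32 tested nuclear respiratory genes, with the 95% interval from edgeR as a horizontal line and colour for the complex. 27 points lie left of 0, and the intervals of Sdhc, Uqcrc2, Cycs, Cox5a and Atp5mc3 lie wholly left of it, with that of Uqcr10 wholly right.

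The promoters of these genes are known for sites of nuclear respiratory factor 1 (NRF-1), of the ETS factor GABPA and of YY1, so the sequences are shown here with matches to those motifs. RefSeq promoter windows on build GRCr8, of 250 bases before and 50 bases after the annotated start, were found for 30 of the 34 symbols. Motifs were searched on both strands in these 300 bases. The NRF-1 core GCATGCGC, which can overlap its own reverse complement, was in 6 of the 30 (20.0%) and in 2.47% of all 33469 windows. The ETS core CCGGAAG was in 9 (30.0%, against 8.75% of all), the YY1 core GCCATNTT in 10 (33.3%, against 6.96%) and the core of estrogen-related receptors, AAGGTCA, in 5 (16.7%, against 4.61%). A TATA box, TATAAA, was in 2 (6.67%, against 14.2%), in Cox8b and Uqcr10, and the GC box GGGCGG in 11 (36.7%, against 33.1%). The median GC content was 58.0% for the set and 51.7% for all windows, and a match is only a description of the letters.

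The 180 bases before the start are printed for 5 members, 5′ to 3′ on the gene's own strand, with NRF-1, ETS, YY1 and MEF2 matches in capitals. Cycs (chr4:80984768-80984947, minus strand) and Uqcrc2 (chr1:184599060-184599239, plus strand) were among the members with the smallest p. Atp5me (chr14:1464680-1464859, plus strand) held 3 kinds of core in its window, with its YY1 core, at base -183, only partly in the stretch printed. Cox7b (chrX:75148856-75149035, plus strand) had a YY1 core close to the start. Cox6a2 (chr1:192219717-192219896, minus strand), a muscle isoform, had none of the first 3 motifs and a match to the pattern searched for the muscle factor MEF2. That pattern left the bases in its middle free, so it was looser than a core with only A or T there. It was in 2 members (6.67%, against 3.84% of all), Cox6a2 with only A in the middle and Cox5b with C and T. These shares are of the looser pattern and not of MEF2 cores.
Cycs: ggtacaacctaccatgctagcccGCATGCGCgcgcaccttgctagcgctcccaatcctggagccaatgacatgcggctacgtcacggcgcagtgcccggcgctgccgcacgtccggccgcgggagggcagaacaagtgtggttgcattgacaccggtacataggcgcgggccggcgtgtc
Uqcrc2: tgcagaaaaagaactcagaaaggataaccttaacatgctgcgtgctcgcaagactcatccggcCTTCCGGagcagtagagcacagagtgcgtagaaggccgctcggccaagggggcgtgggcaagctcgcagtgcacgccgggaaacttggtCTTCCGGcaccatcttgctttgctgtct
Atp5me: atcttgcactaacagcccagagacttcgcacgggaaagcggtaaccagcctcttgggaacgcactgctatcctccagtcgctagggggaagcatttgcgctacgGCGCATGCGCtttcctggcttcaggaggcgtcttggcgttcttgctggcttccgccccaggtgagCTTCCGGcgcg
Cox7b: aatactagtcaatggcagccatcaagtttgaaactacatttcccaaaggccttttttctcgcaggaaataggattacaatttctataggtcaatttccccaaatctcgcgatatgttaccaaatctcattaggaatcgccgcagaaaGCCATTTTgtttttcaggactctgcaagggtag
Cox6a2: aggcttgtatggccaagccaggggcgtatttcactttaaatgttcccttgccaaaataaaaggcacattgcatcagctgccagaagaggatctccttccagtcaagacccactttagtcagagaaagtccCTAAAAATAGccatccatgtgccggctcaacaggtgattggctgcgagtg
Counted from the start, with negative numbers before it, the NRF-1 core of Cycs began at base -157. Uqcrc2 had a pair of ETS cores on the opposite strand, beginning at bases -117 and -28, and Atp5me had overlapping NRF-1 cores on both strands at bases -76 and -74 and an ETS core at base -11. In Cox7b the YY1 core began at base -33, and in Cox6a2 the MEF2 core began at base -50. The 12 of 30 members with none of the NRF-1, ETS and YY1 cores included the muscle isoforms Cox6a2, Cox7a1 and Cox8b. Of the members with the smallest p, Cox5a and Atp5mc3 had none of those cores, Sdhc had 1 YY1 core, Cycs 1 NRF-1 core and Uqcrc2 2 ETS cores.

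In complex II all 4 members had a log2 fold change below 0, as had 47.7% of all tested genes, and Sdhc differed most. Sdhc and Sdhd encode the membrane anchors that hold the heme and bind ubiquinone. Sdhc measured 554, 559 and 548 CPM in saline replicates 1 to 3 and 387, 441 and 378 CPM in ISO replicates 1 to 3. Every ISO library lay below every saline library, and the saline libraries differed from each other by little. Its mean was 554 ± 5.33 CPM over the 3 saline libraries and 402 ± 33.9 CPM over the 3 ISO libraries (SD), and its log2 fold change was -0.46 ± 0.11 (SE) with an adjusted p of 0.068 in edgeR. DESeq2's adjusted p was 0.00108, and over all 15 alternatives the adjusted p ran from 0.00108 to 0.22. Sdhd had a log2 fold change of -0.29 ± 0.15 (SE), with ISO replicate 2 inside the saline range (adjusted p = 0.285 in edgeR).

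The catalytic pair of complex II differed less than the spread between libraries. Sdha, the flavoprotein that oxidises succinate, measured 1090.3, 878 and 934 CPM in saline replicates 1 to 3 and 826, 1054 and 662 CPM in ISO replicates 1 to 3. ISO replicate 2 was the second highest library of all 6 and ISO replicate 3 the lowest. Its log2 fold change was -0.19 ± 0.19 (SE), with an adjusted p of 0.586 in edgeR. Sdhb, the iron-sulfur subunit that passes electrons on, had -0.10 (95% interval -0.46 to 0.26), and without scaling its value was 0.00.

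Complex III held both the lower core and Rieske subunits and the 3 members with the highest fold changes of the set. Uqcrc2, a core protein of the large matrix domain, measured 948, 993 and 951 CPM in saline replicates 1 to 3 and 712, 808 and 631 CPM in ISO replicates 1 to 3. Every ISO library lay below every saline library. The log2 fold change was -0.43 ± 0.13 (SE), with an adjusted p of 0.109 in edgeR and 0.0135 in DESeq2. Its partner Uqcrc1 was at -0.16 ± 0.17 (SE), with overlapping groups (adjusted p = 0.613 in edgeR).

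The 2 electron carriers of complex III encoded in the nucleus did not pass the test either. Uqcrfs1, the Rieske iron-sulfur protein, measured 950.4, 865 and 927 CPM in saline replicates 1 to 3 and 712, 846 and 618 CPM in ISO replicates 1 to 3. The groups did not overlap, although ISO replicate 2 came close to the lowest saline library. Its log2 fold change was -0.33 ± 0.15 (SE), with an adjusted p of 0.22 in edgeR. Cyc1, cytochrome c1, was at -0.19 ± 0.18 (SE) with overlapping groups, and Uqcrh, the hinge protein beside it, at -0.15 ± 0.14 (SE).

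The small subunits Uqcrq, Uqcr10 and Uqcr11 leaned the other way. Uqcr10 measured 63.4, 38.6 and 52.3 CPM in saline replicates 1 to 3 and 79.6, 109 and 52.0 CPM in ISO replicates 1 to 3. ISO replicates 1 and 2 were above all saline libraries, and ISO replicate 3 was within their range. Its log2 fold change of 0.64 ± 0.27 (SE) had an unadjusted p of 0.0454 and an adjusted p of 0.209 in edgeR. Uqcr11 measured 305, 141 and 231 CPM in saline replicates 1 to 3 and 269, 408 and 195 CPM in ISO replicates 1 to 3. Both groups spread widely and overlapped, and the log2 fold change was 0.37 ± 0.32 (SE). Uqcrq was at 0.19 ± 0.22 (SE), and at -0.03 without ISO replicate 2. Uqcrb, another small subunit, was at -0.06 ± 0.21 (SE), and a second row of that name, with 1109 to 1535 counts per library, was not used in this value. With both rows summed it was -0.18.

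**Figure D2:**
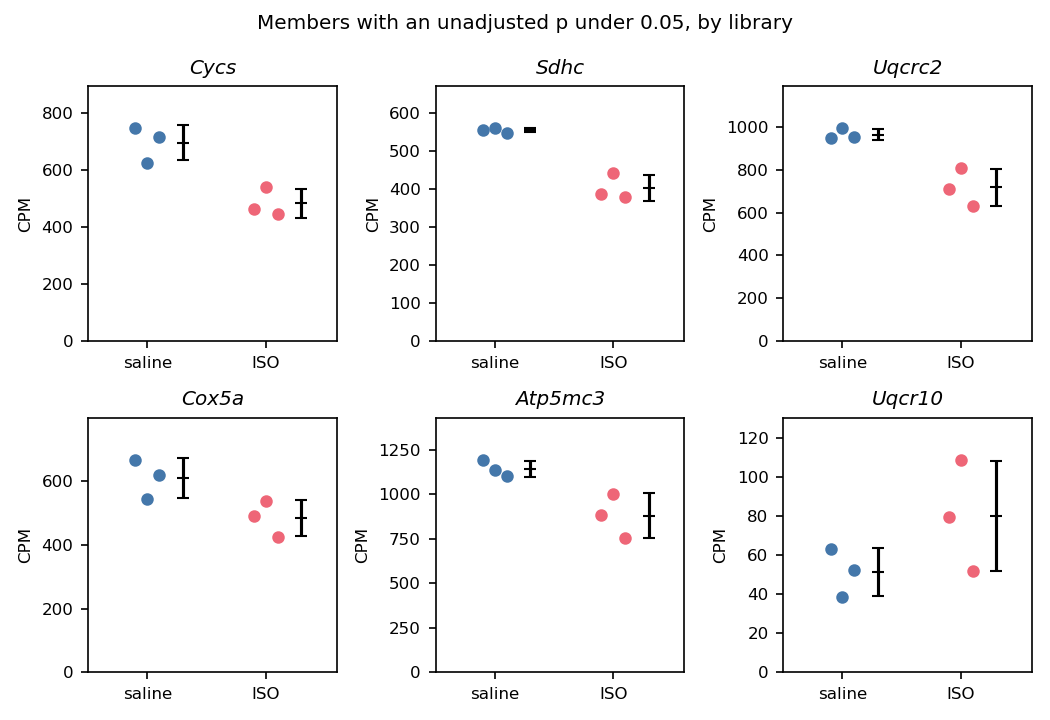
CPM of the 6 members with an unadjusted edgeR p under 0.05, as 1 point per library with the mean and SD of 3 libraries beside the points, and with every vertical axis starting at 0. In Cycs, Sdhc, Uqcrc2, Cox5a and Atp5mc3 all ISO points lie below all saline points, and in Uqcr10 ISO replicate 3 falls within the saline range.

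Cytochrome c, the mobile carrier between complexes III and IV, had the lowest log2 fold change of the set after Atp5pb. Cycs measured 745, 625 and 716 CPM in saline replicates 1 to 3 and 461, 541 and 445 CPM in ISO replicates 1 to 3. All ISO libraries lay below all saline libraries, and the gap between the groups was from 541 to 625 CPM. Its mean was 695 ± 62.4 CPM over the 3 saline libraries and 482 ± 51.1 CPM over the 3 ISO libraries (SD), a ratio of 0.694. The log2 fold change was -0.53 ± 0.13 (SE), with a 95% interval of -0.83 to -0.22 and an adjusted p of 0.0699 in edgeR. DESeq2's adjusted p was 0.00189, and over the 15 alternatives the adjusted p ran from there to 0.221. Cycs kept a log2 fold change below -0.42 in all 15 alternatives, among them no scaling, the replicate block and each library left out.

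Hccs, the enzyme that attaches heme to cytochrome c, is in the list of assembly factors and was called. It measured 87.1, 89.5 and 83.8 CPM in saline replicates 1 to 3 and 53.1, 63.9 and 56.4 CPM in ISO replicates 1 to 3. No ISO library reached the saline range. Hccs fell by 0.59 ± 0.11 (SE) on the log2 scale, with an adjusted p of 0.0317 in edgeR. Over the alternatives its adjusted p ran from 0.000277 to 0.127, and of the 6 fits with a library left out only that without ISO replicate 2 called it.

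Complex IV had the median closest to 0 of the complexes. In 2 of its 8 tested members ISO lay wholly below saline, which held for 14.6% of all tested genes. Cox5a, a matrix-side subunit, measured 665, 543 and 617 CPM in saline replicates 1 to 3 and 490.3, 536 and 424 CPM in ISO replicates 1 to 3. The groups did not overlap, with ISO replicate 2 just below saline replicate 2. The log2 fold change was -0.33 ± 0.14 (SE), with an unadjusted p of 0.0427 and an adjusted p of 0.203 in edgeR. Cox7b, a small membrane subunit, measured 539, 523 and 539.6 CPM in saline replicates 1 to 3 and 432, 520.1 and 383 CPM in ISO replicates 1 to 3. Here too no ISO library reached the saline range, although ISO replicate 2 came within a few CPM, and the log2 fold change was -0.26 ± 0.14 (SE) (adjusted p = 0.292 in edgeR).

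The remaining tested members of complex IV overlapped between groups. Cox4i1, the subunit through which ATP regulates the enzyme, was at -0.03 ± 0.18 (SE). Cox6c was at -0.13 ± 0.13 (SE) and Cox7c at 0.08 ± 0.14 (SE), both small membrane subunits. Cox5b, which holds the zinc of the complex, measured 296, 199 and 295 CPM in saline replicates 1 to 3 and 258, 376 and 167 CPM in ISO replicates 1 to 3. ISO replicate 2 was the highest and ISO replicate 3 the lowest of the 6 libraries, and the log2 fold change of 0.02 ± 0.28 (SE) became -0.31 without ISO replicate 2 and 0.27 without ISO replicate 3.

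The heart and skeletal muscle isoforms were set beside their partners from the widely expressed form. Cox6a2 was at -0.01 ± 0.19 (SE) (95% interval -0.45 to 0.43) and Cox8b at -0.26 ± 0.16 (SE) (-0.63 to 0.11). Cox7a1, the third muscle isoform, had 1, 4 and 5 counts in the saline libraries and 3, 5 and 4 in the ISO libraries, and did not pass the filter on low counts. These counts are low for an isoform known from heart muscle, and whether the annotation or the counting missed its reads was not tested, so they are not taken as its level. Its partner Cox7a2 was at -0.03 ± 0.12 (SE), and at 0.08 without scaling.

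Ratios of reads within a library do not depend on the scaling between libraries, and 3 were formed after the values had been seen. Per 100 reads of Cox6a2, Cox6a1 had 18.4, 14.1 and 17.3 reads in saline replicates 1 to 3 and 21.0, 23.0 and 21.8 in ISO replicates 1 to 3. Per 100 reads of Cox8b, Cox8a had 20.6, 14.9 and 19.3 reads in saline and 30.7, 29.8 and 23.4 in ISO. In both pairs every ISO library lay above every saline library. The mean log2 ratio was higher in ISO by 0.41 for Cox6a1 over Cox6a2 and by 0.62 for Cox8a over Cox8b. The two-sided exact permutation p was 0.1 for each, which is the smallest that 3 against 3 libraries allow. Per 100 reads of Cox4i1, the lung-enriched form Cox4i2 had 0.828, 1.30 and 1.26 reads in saline and 0.880, 0.784 and 1.00 in ISO, which overlapped (difference in log2 ratio -0.32, two-sided exact permutation p = 0.3). The widely expressed forms are also made by fibroblasts and macrophages, whose markers were higher in ISO, and the part of those cells in the ratios was not tested.

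**Figure D3:**
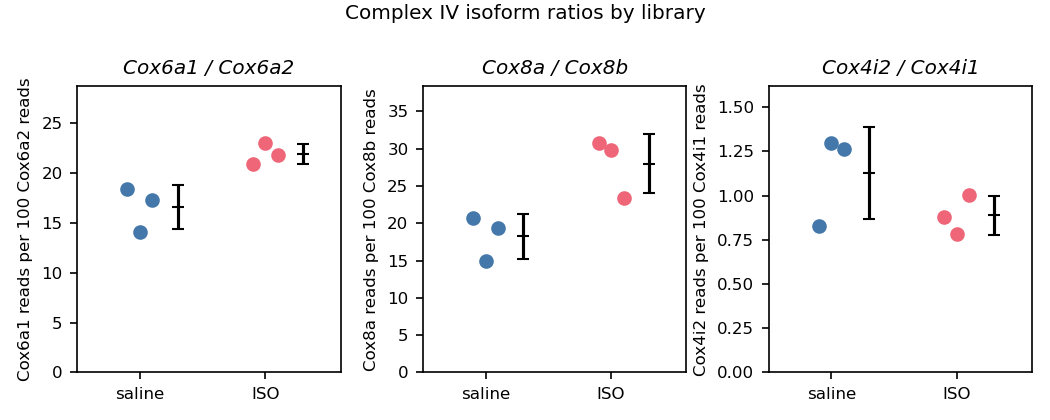
Reads of 1 complex IV isoform per 100 reads of its partner in each library, as points by group, with the mean and SD of 3 libraries beside them and vertical axes from 0. For Cox6a1 per Cox6a2 and Cox8a per Cox8b the 3 ISO points lie above the 3 saline points, and for Cox4i2 per Cox4i1 the groups overlap.

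In complex V all 10 measured members had a log2 fold change below 0, against 47.7% of all tested genes. In 2 of them ISO lay wholly below saline, against 14.6% of all tested genes. Outside the set, the complex V subunits Atp5mf and Atp5mg were above 0 and Atp5pd, Atp5pf and Atp5md below. The catalytic head was represented by Atp5f1a and Atp5f1b, the alpha and beta subunits. Atp5f1b measured 6499, 6090.3 and 5712 CPM in saline replicates 1 to 3 and 5335, 6838 and 4524 CPM in ISO replicates 1 to 3. ISO replicate 2 was the highest of all 6 libraries and ISO replicate 3 the lowest. The log2 fold change was -0.13 ± 0.19 (SE) for Atp5f1b and -0.21 ± 0.16 (SE) for Atp5f1a, with adjusted p of 0.723 and 0.462 in edgeR. The central stalk members Atp5f1d and Atp5f1e, the delta and epsilon subunits, were at -0.09 and -0.08, and at 0.01 and 0.02 without scaling.

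The 3 genes Atp5mc1, Atp5mc2 and Atp5mc3 encode the same mature c subunit of the rotor ring with different import sequences. Atp5mc3 measured 1192, 1136 and 1100.1 CPM in saline replicates 1 to 3 and 885, 1002 and 751 CPM in ISO replicates 1 to 3. All ISO libraries lay below all saline libraries, and the log2 fold change was -0.38 ± 0.14 (SE), with an unadjusted p of 0.0284 and an adjusted p of 0.167 in edgeR. Atp5mc1 was at -0.15 ± 0.17 (SE) and Atp5mc2 at -0.14 ± 0.13 (SE), both with groups that overlapped. Their intervals, -0.54 to 0.25 and -0.44 to 0.16, include the value of Atp5mc3, and the difference between the 3 genes was not tested.

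The peripheral stalk holds the head still while the ring turns. Atp5po, the subunit known for oligomycin sensitivity, measured 804, 708 and 745 CPM in saline replicates 1 to 3 and 641, 691 and 540.2 CPM in ISO replicates 1 to 3. The groups did not overlap, and the log2 fold change was -0.27 ± 0.14 (SE) (adjusted p = 0.272 in edgeR). Atp5pb, subunit b of the stalk, had only 139 to 392 counts per library, which is low for a subunit of the enzyme's stalk, and whether its reads were counted in full was not tested. It measured 26.7, 10.7 and 10.1 CPM in saline replicates 1 to 3 and 8.71, 12.0 and 11.3 CPM in ISO replicates 1 to 3. Saline replicate 1 stood apart from the other 5 libraries: the log2 fold change of -0.57 ± 0.37 (SE) became 0.03 without it. Atp5me, subunit e, which is known for its place where the enzyme forms dimers, was at -0.36 ± 0.16 (SE), with an unadjusted p of 0.0511 and overlapping groups.

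The members varied together from library to library, and the ISO libraries stood in almost one order. ISO replicate 2 was the highest ISO library in 32 of 32 tested members, whereas it was the highest in 36.6% of all tested genes. ISO replicate 3 was the lowest in 31 of 32, against 35.6% of all tested genes, and the exception was Atp5pb. Among the saline libraries, replicate 1 was the highest in 27 members and replicate 2 the lowest in 20, against 32.9% and 38.0% of all tested genes. Relative to the saline mean, the median member was at -0.18 on the log2 CPM scale in ISO replicate 1, 0.07 in ISO replicate 2 and -0.44 in ISO replicate 3. The median coefficient of variation of the members was 9.61% in saline and 16.2% in ISO, against 8.16% and 12.1% for the 1376 tested genes that averaged 100 CPM or more.

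The size of the set's distance from saline depended on single libraries, although its median stayed below 0 whichever library was left out. Without ISO replicate 2 the median log2 fold change of the members was -0.31, with 30 below 0, and edgeR called 3 (Sdhc, Uqcrc2 and Cycs, with adjusted p of 0.0347, 0.0463 and 0.037). Without ISO replicate 3 it was -0.04, with 20 below 0 and 12 above and 0 called. It was -0.09 without saline replicate 1, with 0 called, and -0.17 without ISO replicate 1, the library with atrial transcripts. Summed, the members came to 30698, 27112 and 27776 CPM in saline replicates 1 to 3. In ISO replicates 1 to 3 they came to 24821, 29941 and 21088 CPM. On this scale ISO replicate 2 lay within the saline range and the other ISO libraries below it. These sums depend on the scaling between libraries and are not shares of the reads.

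Some other lists had the members' order of ISO libraries or its reverse. The median of 17 cardiomyocyte markers relative to saline was -0.22, -0.04 and -0.50 in ISO replicates 1 to 3, and that of 34 nuclear subunits of complex I was -0.15, 0.03 and -0.42. Tricarboxylic acid cycle enzymes (-0.28, -0.05 and -0.49) and assembly factors (-0.37, -0.16 and -0.42) had the same order. So did mitochondrial carriers and outer membrane channels (-0.34, -0.05 and -0.53) and red blood cell markers (-0.81, -0.34 and -1.90). Nuclear subunits of complexes III to V outside the set had it too (0.05, 0.21 and -0.24). The median of 12 fibroblast markers was 1.27, 0.56 and 1.94, and that of 14 macrophage markers 0.94, 0.60 and 1.47, so the library with the lowest respiratory genes had the highest values of both. Other lists had neither order: the median of 47 cytosolic ribosomal protein genes was 0.44, 0.13 and 0.41, that of 16 regulators of nuclear respiratory genes -0.19, -0.05 and -0.16, and that of 10 endothelial markers -0.05, -0.07 and -0.16. The part of the marked cell types in the difference between libraries was not tested, and with 3 ISO libraries no correlation was computed.

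**Figure D4:**
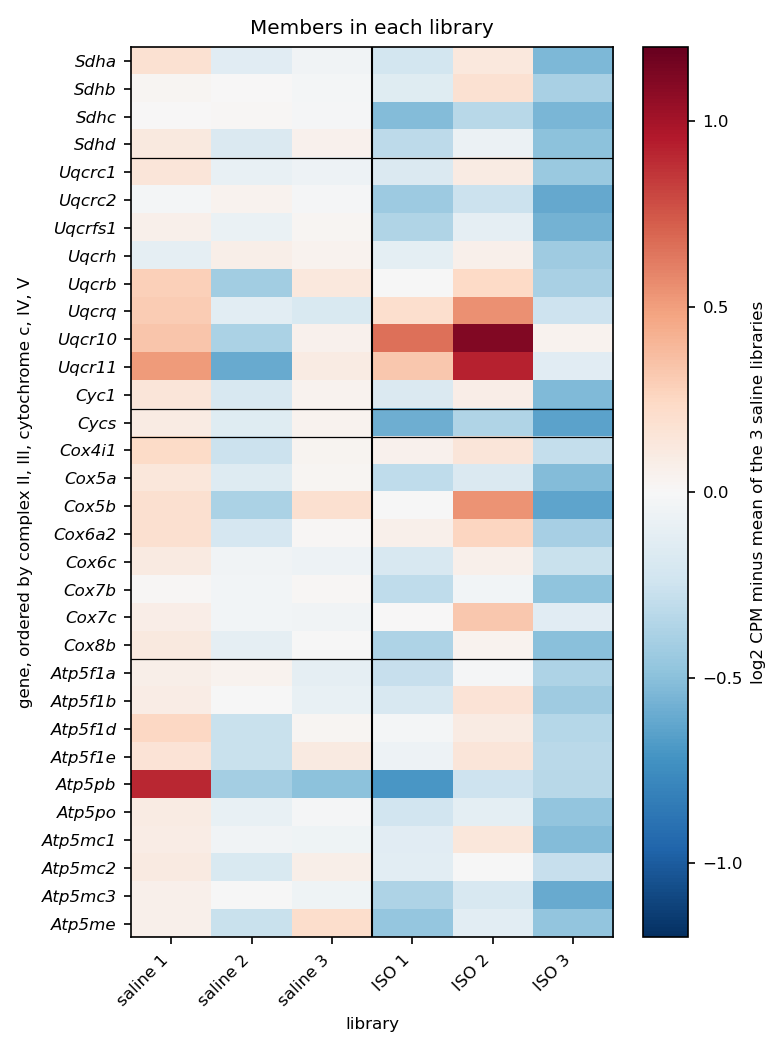
Log2 CPM of each tested member in each library minus the mean of the 3 saline libraries, in blue for lower and red for higher values, with members in order of complex. The ISO replicate 3 column is the lowest ISO column in all rows but Atp5pb, and the ISO replicate 2 column is the highest in every row.

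**Figure D5:**
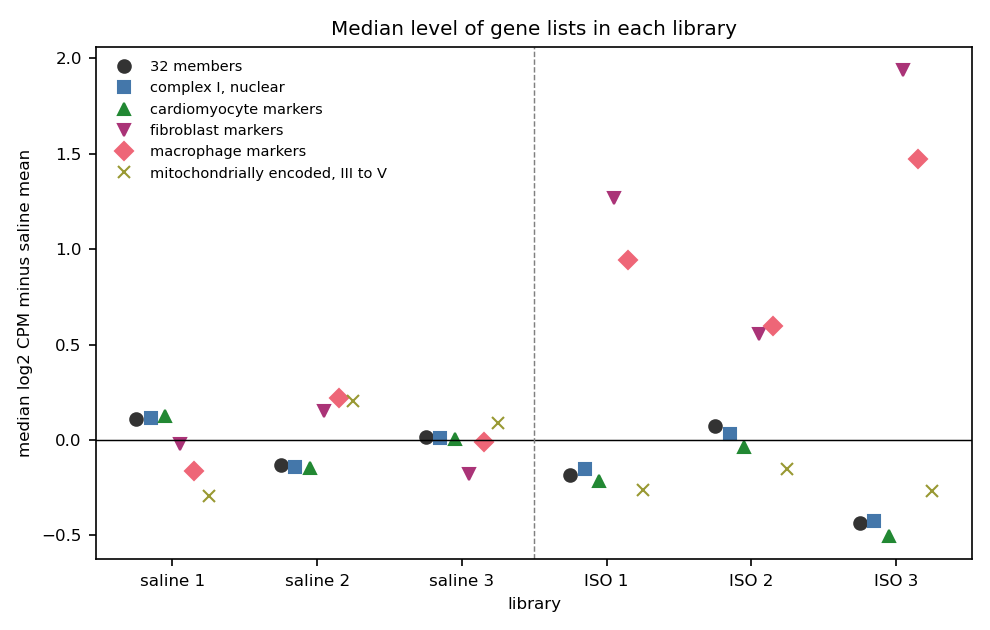
Median log2 CPM minus the saline mean in each library for the members and 5 other gene lists, with 1 symbol per list. The members, the nuclear subunits of complex I and the cardiomyocyte markers lie close together in each library, while fibroblast and macrophage markers are highest in ISO replicate 3.

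The partner subunits made inside the mitochondrion did not pass the test either. The 6 genes for mitochondrially encoded subunits of complexes III to V had a median log2 fold change of -0.26, and edgeR called 0 of 6, with 0 at an unadjusted p under 0.05, while DESeq2 and voom also called 0. COX1, the catalytic subunit of complex IV, was at -0.25 ± 0.21 (SE), COX2 at -0.28 and COX3 at -0.29. CYTB, the cytochrome b of complex III, was at -0.30 ± 0.20 (SE), and ATP6, the proton channel of complex V, at -0.23. ATP8 was at 0.45 ± 0.23 (SE), but its reading frame overlaps that of ATP6, so reads from the overlap cannot be told apart. Summed, the 6 came to 176841, 245370 and 223795 CPM in saline replicates 1 to 3. In ISO replicates 1 to 3 they came to 175079, 190339 and 173382 CPM. These sums depend on the scaling between libraries and are not shares of the reads. On this scale saline replicate 1 was within the ISO range, so the groups overlapped. The order of the saline libraries was the reverse of that in the summed nuclear members.

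The 14 other nuclear subunits of complexes III to V that could be tested were even in direction, with 7 above and 7 below 0 and a median log2 fold change of -0.0046. edgeR, DESeq2 and voom called 0 of them, and edgeR gave 0 an unadjusted p under 0.05. In complex IV, Cox6a1 was at 0.38, Cox6b1 at 0.20, Cox8a at 0.36, Cox7a2l at 0.13 and Cox4i2 at -0.36. Ndufa4, which is counted with complex IV despite its name, was at -0.13. Cox6b2, known from testis, had 9 to 41 counts per library and a log2 fold change of 1.20 ± 0.56 (SE). In complex V, the membrane and stalk subunits Atp5mf, Atp5mg, Atp5pd, Atp5pf and Atp5md were at 0.16, 0.02, -0.08, -0.11 and -0.26. Atp5if1, the inhibitor that stops the enzyme from running backwards, was at -0.13. The 34 nuclear subunits of complex I had a median of -0.17, with 0 called by edgeR, 7 at an unadjusted p under 0.05, 0 called by voom and 5 by DESeq2, all lower. Over all tested genes, 22.9% had an unadjusted p under 0.05 in edgeR and DESeq2 called 4.74% lower. Without ISO replicate 2, edgeR called 3 of the 34, all lower.

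Genes that build the complexes, rather than their subunits, did include calls. Of 35 tested assembly factors of complexes II to V, edgeR called 4 lower and 0 higher, with a median log2 fold change of -0.32, where it called 1.50% of all tested genes lower. DESeq2 called 8 lower and 1 higher, where it called 4.74% of all tested genes lower. The voom method called 3 lower, where it called 1.27% of all tested genes lower. With a library left out, edgeR called 9 lower without ISO replicate 2, 2 without ISO replicate 3 and 0 without ISO replicate 1 or any one of the saline replicates. It also called 0 with the replicate block. Coa5, which helps to build complex IV, measured 487, 538 and 482 CPM in saline replicates 1 to 3 and 286, 331 and 275 CPM in ISO replicates 1 to 3. Every ISO library was far below the saline range, and Coa5 fell by 0.76 ± 0.12 (SE) on the log2 scale (adjusted p = 0.0225 in edgeR). Tmem70, which helps to assemble the rotor ring of complex V, measured 111, 123 and 102 CPM in saline replicates 1 to 3 and 68.2, 74.7 and 57.8 CPM in ISO replicates 1 to 3. The groups did not overlap, and it fell by 0.74 ± 0.13 (SE) (adjusted p = 0.0286 in edgeR). The other 2 were Hccs, given above, and Taco1, a translational activator of COX1, at -0.70 ± 0.15 (SE) with an adjusted p of 0.0482. Taco1 was named after its values were seen. Coa5 and Tmem70 were called in 2 of the 6 fits with a library left out, without ISO replicate 2 and without ISO replicate 3, and Taco1 in 1, without ISO replicate 2. Their adjusted p over all alternatives reached 0.108, 0.105 and 0.177, and Taco1 was also not called without scaling, without a filter or with voom.

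Among 16 regulators of nuclear respiratory genes, edgeR called 2 lower and 0 higher, with a median log2 fold change of -0.12. DESeq2 called 3 lower and voom 1. Of all tested genes, edgeR called 1.50% lower, DESeq2 4.74% and voom 1.27%. Ppara, a receptor that drives fatty acid oxidation genes, measured 33.0, 40.3 and 33.9 CPM in saline replicates 1 to 3 and 22.2, 21.5 and 15.8 CPM in ISO replicates 1 to 3. Ppargc1b, a coactivator of mitochondrial genes, measured 51.8, 35.5 and 51.7 CPM in saline replicates 1 to 3 and 24.9, 29.9 and 23.6 CPM in ISO replicates 1 to 3. Both had groups that did not overlap, and they fell by 0.85 ± 0.16 and 0.83 ± 0.17 (SE), with adjusted p of 0.033 and 0.0461 in edgeR. Ppara was called without ISO replicate 2 or without ISO replicate 3 and Ppargc1b without ISO replicate 2, whereas the other fits that left out a library did not call them. Ppargc1b was also not called without scaling (adjusted p = 0.0633 in edgeR) or with voom (adjusted p = 0.056). The factors whose motifs were searched above were named for that reason, outside the rule for named genes: Nrf1 was at -0.14 ± 0.14 (SE), Gabpa at -0.09 ± 0.10 (SE), Yy1 at -0.10 ± 0.09 (SE) and Esrra at 0.05 ± 0.24 (SE). The coactivator Ppargc1a was at -0.04 ± 0.12 (SE) (95% interval -0.31 to 0.23). None of these 5 was called in edgeR, and without scaling the values of Gabpa, Yy1 and Ppargc1a were above 0.

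Of 15 genes for mitochondrial transcription, replication and mRNA stability, edgeR called 1 lower, where it called 1.50% of all tested genes lower. DESeq2 called 4 lower and voom 1, against 4.74% and 1.27% of all tested genes. Without ISO replicate 2 edgeR called 3 lower. Slirp, which keeps mitochondrial mRNAs stable together with a partner protein, measured 30.2, 30.9 and 30.0 CPM in saline replicates 1 to 3 and 17.1, 20.5 and 19.5 CPM in ISO replicates 1 to 3. The ISO libraries lay far below the saline range, and Slirp fell by 0.67 ± 0.11 (SE), with an adjusted p of 0.026 in edgeR. It was called without ISO replicate 2 and without ISO replicate 3 but in none of the other 4 fits that left out a library, and its adjusted p over all alternatives reached 0.117.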

How the data were processed

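RNA was sequenced from 6 rat hearts, 3 per group, and the label of each library gave its group. Per the series description, the authors used HISAT2 to align 150 bp paired reads to the rat genome and featureCounts for quantification. What they deposited are raw, whole-number counts per gene. The submitters' processing notes list mm10, whereas the table carries rat gene identifiers, and the strand setting of the counting is not stated in the labels. The 1006 rows without a gene name (0.981% to 1.32% of counts) were left out.

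The test was that of edgeR 4.0.16, run in R 4.3.3 (quasi-likelihood F test, TMM scaling, default low-count filter, Benjamini-Hochberg adjustment, threshold 0.05). The SE is the absolute log2 fold change over the root of F. CPM follow TMM scaling, and log2 CPM used a prior count of 2. Alternatives were limma 3.58.1 (voom), DESeq2 1.42.0, other scalings, filters and thresholds, leaving out each library, and a block for the replicate number. The scripts were tested on simulated data. No pair of libraries agreed within sampling noise, and each library is taken as 1 rat.

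The members and lists were chosen with earlier results of these data known. The rule for named genes took all members and all other listed subunits of complexes III to V, up to 3 called genes of each other pathway list and, failing calls, the 2 most abundant. It also took up to 2 genes of each marker list. Uncalled genes of those pathway lists and most markers are given as counts or sums only. Alternatives for genes outside the set were added after the data were seen. Promoters came from RefSeq, build GRCr8. The check of replicate numbers is in the closing section.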

Additional observations from a re-analysis of the deposited data

How the results depend on the processing

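With 3 libraries per group, a 1.5-fold change lay within the 95% interval of 16 of 32 members. Markers of fibroblasts, macrophages, red blood cells and atrial muscle differed between libraries. Gene lengths, GC content and strand were not examined. The sign of the log2 fold change was the same in all 15 alternatives for 21 of 32 members.

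edgeR called 203 genes higher and 206 lower. Other settings gave 322 higher without a filter, 752 higher and 653 lower with DESeq2, 4 and 7 at an adjusted p under 0.01, and 1193 and 619 by the rule of the series description. Without scaling it was 280 and 123. Leaving out 1 library gave 6 to 492 higher and 5 to 346 lower; the highest counts came without ISO replicate 2 and the other ends without saline replicates 2 and 3. Counts were 14 and 12 without saline replicate 1, 9 and 14 without ISO replicate 1, and 171 and 124 without ISO replicate 3. Of members, 0 were called lower, but 3 by DESeq2, 1 by the series' rule (Cycs) and 0 to 3 with a library left out. The series' rule also called 1 higher, Uqcr10.

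With the replicate number as a block, 15 genes were called higher and 13 lower, and 0 members, and Coa5, Taco1, Hccs, Tmem70, Ppara, Ppargc1b and Slirp were not called. Same-numbered libraries had correlations of 0.087, -0.099 and 0.018 in their deviations from the group means, and differently numbered ones -0.151 to 0.119. So few libraries cannot settle whether the numbers pair the samples, and the labels do not tie same-numbered rats.

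The median of the members ran from -0.31 to -0.04 with a library left out. Without scaling the sign turned for Sdhb (0.0013), Uqcrb (0.038), Cox4i1 (0.067), Cox6a2 (0.085), Atp5f1d (0.0057), Atp5f1e (0.017), Cox7a2 (0.078), Atp5pd (0.020), Gabpa (0.023), Yy1 (0.013) and Ppargc1a (0.070). Cox5b was at -0.032 with voom and -0.038 with the block. With a library left out, signs turned within these ranges: Sdhb -0.27 to 0.029, Uqcrb -0.24 to 0.099, Uqcrq -0.028 to 0.37, Cox4i1 -0.15 to 0.091, Cox5b -0.31 to 0.27, Cox6a2 -0.16 to 0.16, Cox7c -0.066 to 0.17, Atp5f1d -0.22 to 0.035, Atp5f1e -0.21 to 0.036, Atp5pb -0.81 to 0.032, Atp5mc1 -0.32 to 0.012, Cox7a2 -0.088 to 0.049, Atp5mf -0.042 to 0.33, Atp5mg -0.11 to 0.16, Atp5pd -0.25 to 0.057, Atp5pf -0.30 to 0.058, Esrra -0.16 to 0.22 and Ppargc1a -0.13 to 0.016. The cause was not tested.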

Other observations

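The cytosolic ribosomal protein genes differed from the respiratory genes in direction. Of 47 tested, 43 had a log2 fold change above 0, and the median was 0.35. edgeR called 1, voom 0 and DESeq2 14, all higher, and 21 had an unadjusted p under 0.05 in edgeR, all higher. Over all tested genes, edgeR called 1.47% higher, DESeq2 called 5.46% higher, and 12.0% were higher with an unadjusted p under 0.05 in edgeR. With a library left out, edgeR called 11 of the 47 without ISO replicate 2 and 0 without any other library, and it called 0 with the replicate block. Many ribosomal protein genes have near-identical pseudogenes, so their counts are uncertain. The 14 tested enzymes of the tricarboxylic acid cycle, which feeds complexes I and II, all had a log2 fold change below 0, with a median of -0.26. edgeR called 0 of these 14, with 3 at an unadjusted p under 0.05, voom called 0 and DESeq2 called 1, all lower. The 10 mitochondrial carriers and outer membrane channels, which move adenine nucleotides, phosphate and other metabolites, had a median of -0.29 and 9 values below 0. edgeR and voom called 0 of the 10, with 4 at an unadjusted p under 0.05 in edgeR, and DESeq2 called 3, all lower. Beside both lists, 10.9% of all tested genes were lower with an unadjusted p under 0.05 in edgeR, and DESeq2 called 4.74% lower.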
